A study of Caenorhabditis elegans with 16 samples.

Results

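The small RNAs bound to the Argonaute WAGO-1 were compared with the total small RNA of wild-type worms, using 2 of the 16 samples of the series: 1 library of the GFP::WAGO-1 IP and 1 library of N2 total small RNA. The IP came from worms of the genotype GFP::WAGO-1, in which a GFP fusion was expressed from the wago-1 promoter, and its label names an anti-FLAG M2 antibody. The total small RNA came from N2, the wild-type laboratory strain, and was therefore not an input of the strain used for the IP. The study's methods describe phosphatase and polynucleotide kinase treatment before library construction for Argonaute-associated RNA. They do not state it for total small RNA. Binding to WAGO-1 and a difference in library preparation therefore cannot be told apart in the ratios below. Both samples are labelled as young adults of Caenorhabditis elegans grown at 20 °C on OP50 bacteria. The study's text likewise gives young adults for the WAGO-1 IP and its methods on small RNA isolation give synchronized worms, although a general section on RNA immunoprecipitation names embryos. Another pair, cde-1(tm936);GFP::WAGO-1 IP and cde-1(tm936) total small RNA, lacks the uridylyltransferase CDE-1 and shares no library with the first pair. It is given beside it, but it is not a replicate, since the genotype differs. The GFP::HRDE-1 IP is also given beside it. It shares the N2 library, so only its own values are set out.

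WAGO-1 is a germline Argonaute of the worm-specific WAGO clade. It sits in perinuclear granules and carries 22G-RNAs, short antisense RNAs that RNA-dependent RNA polymerases copy from target transcripts and that begin with G. Known targets of this pathway are transposons, pseudogenes, cryptic loci and a part of the protein-coding genes. Other Argonautes carry the other small RNA classes: ALG-1 and ALG-2 bind miRNAs, PRG-1 binds 21U-RNAs (the piRNAs of worms), and CSR-1 binds 22G-RNAs against genes expressed in the germline.

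Each library gives, for every transcript, the number of reads on the same strand (sense) and on the opposite strand (antisense), and the class of the transcript. The IP held 6370346 counted reads and N2 held 9439070, of which class rRNA took 10.3% in the IP and 32.2% in N2. Values below are reads per 1000000 counted reads outside class rRNA (RPM), over 5715881 reads in the IP and 6401866 in N2. A ratio is therefore a ratio of shares, and a class that takes more of a library leaves less for the others. With 1 library per group, no test between groups was possible. Intervals are 95% intervals for counting error only, since reads amplified by PCR and not tagged with molecular identifiers can be copies of each other. A count of 3 reads was the floor, which is 0.525 RPM in the IP and 0.469 RPM in N2.

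The tagged gene was checked first. Sense reads on the wago-1 gene itself numbered 25408 in the IP and 1560 in N2, a ratio of 18.2 (17.3 to 19.2). In the cde-1(tm936) pair they numbered 31317 in the IP and 1163 in total small RNA, a ratio of 22.0. The HRDE-1 IP held 685 sense reads on wago-1 and 10570 on hrde-1, while the WAGO-1 IP held 624 on hrde-1 and N2 held 1277. Sense reads on prg-1 and csr-1, which encode other Argonautes, had ratios of 0.396 and 0.437 in the WAGO-1 IP over N2. The origin of the sense reads on the tagged Argonaute genes was not tested.

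Antisense reads made up 81.4% of the reads outside class rRNA in the IP and 19.2% in N2. On protein-coding genes the antisense share of all reads was 80.3% in the IP and 14.9% in N2. Antisense reads on protein-coding genes alone took 687945 RPM in the IP and 110840 RPM in N2, a ratio of 6.21 (6.19 to 6.22). Sense reads on the same genes took 169133 RPM in the IP and 634854 RPM in N2, a ratio of 0.266. The cde-1(tm936) pair gave 5.20 for antisense and 0.249 for sense reads, and the HRDE-1 IP over N2 gave 5.53 and 0.374.

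Transposons were the class with the highest antisense ratio. They held 92444 RPM in the IP and 6864 RPM in N2, 13.5-fold higher on WAGO-1 (13.3 to 13.6). The ratio was 20.2 in the cde-1(tm936) pair and 12.0 for the HRDE-1 IP over N2. Of the 349 transposon entries, 259 had at least 50 antisense reads in either library, of which 250 were at least 2-fold higher in the IP and 3 at least 2-fold lower, with a median log2 ratio of 3.64. Over the protein-coding class, 64.9% of the genes compared were higher and 13.5% lower. Here and in the counts of the other classes, an entry that reached 50 reads in 1 library alone could not be 2-fold higher in the other. The entry with most antisense reads, T27C5.9, had 86106 reads in the IP and 5569 in N2, which was 16.3% of the class in the IP and 12.7% in N2. K03D3.6 followed with 22697 in the IP and 1274 in N2. Sense reads on transposons also took a larger share in the IP, at 1776 RPM against 942 RPM in N2. F44E2.2 went the other way on the sense strand, with 458 reads in the IP and 1478 in N2.

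Pseudogenes were counted by the authors within the protein-coding class, and were picked out here by their Ensembl biotype. The 548 pseudogenes held 55912 antisense RPM in the IP and 4409 RPM in N2, a ratio of 12.7 (12.5 to 12.8), which is close to that of transposons. The 19592 genes with a protein-coding biotype had a ratio of 5.77. The pseudogene Y46H3C.6 (chromosome V, 1697889 to 1701617, WBcel235) held the most antisense reads of any gene in the class, 74917 in the IP and 1960 in N2. Without it the pseudogene ratio was 10.4.

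Long intergenic noncoding RNAs (lincRNAs) were also covered by antisense reads on WAGO-1. The class had 16031 RPM in the IP and 2656 RPM in N2, 6.04-fold higher (5.94 to 6.13). linc-63 (chromosome I, 3870642 to 3871267) had 30955 antisense reads in the IP and 1855 in N2. linc-29 (chromosome IV, 6354024 to 6357243) had 28980 in the IP and 4208 in N2. Not every lincRNA followed: of 35 with at least 50 antisense reads, 23 were at least 2-fold higher in the IP and 11 at least 2-fold lower. In the protein-coding class 64.9% were higher and 13.5% lower. The part of lincRNAs that was higher was thus near that of the protein-coding class, and the part that was lower was larger. linc-22 on chromosome X (9069138 to 9073735) held the most such reads of all in N2, 6124, against 2054 in the IP.

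Antisense reads on tRNA, snRNA and spliced leader genes were few, while snoRNA genes held 7861 in the IP and 10836 in N2. tRNA genes, which held almost only sense reads in N2, had 939 antisense reads in the IP and 98 in N2, a ratio of 10.7 (8.72 to 13.2). Y17G9A.t1 had 72 antisense reads in the IP and 0 in N2, at least 26.9-fold higher. snoRNA genes as a class had a ratio of 0.813 (0.789 to 0.836), but single genes lay far apart. Of 20 with at least 50 antisense reads, 15 were at least 2-fold higher in the IP and 5 at least 2-fold lower, beside 64.9% and 13.5% in the protein-coding class. K07C10.2, with most in N2, had 677 in the IP and 5856 in N2.

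The class ncRNA showed how the count depends on which strand a neighbouring gene is read from. Taken whole, its antisense reads were at 16076 RPM in the IP and 69583 RPM in N2, a ratio of 0.231. Of its 7951 genes, 444 have exons that overlap a miRNA, tRNA, snoRNA, snRNA or rRNA gene on the other strand by at least 18 nt. These 444 held 5.56% of the antisense reads of the class in the IP and 93.5% in N2. T09B4.14, which lies opposite mir-1 on chromosome I, had 217 antisense reads in the IP and 21997 in N2. Without those genes the class had 15182 RPM in the IP and 4538 RPM in N2, and the ratio turned to 3.35 (3.30 to 3.39). This split was chosen after the values had been seen. Y71A12B.10, annotated by Ensembl as protein-coding, led the class in the IP with 32931 antisense reads there and 3189 in N2.

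Class rRNA carries the same caution. Its antisense reads were at 17142 RPM in the IP and 57164 RPM in N2. The features F31C3.13 to F31C3.16 are annotated on the strand opposite to the rrn-1, rrn-2 and rrn-3 genes. They held 93638 of the 97979 antisense reads in the IP, and 340369 of the 365953 in N2. On those 4 genes themselves (rrn-1.1, rrn-1.2, rrn-2.1 and rrn-3.1), antisense reads numbered 2042 in the IP and 230 in N2, a ratio of 9.94 (8.68 to 11.4). Their sense reads had a ratio of 0.237. In the cde-1(tm936) pair their antisense ratio was 3.12. The 26S gene rrn-3.1 gave 1876 antisense reads in the IP and 210 in N2. The 16 rrn-4 genes went the other way, with 2299 antisense reads in the IP and 25354 in N2, a ratio of 0.102. These subsets too were chosen after the values had been seen.

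**Figure D1:**
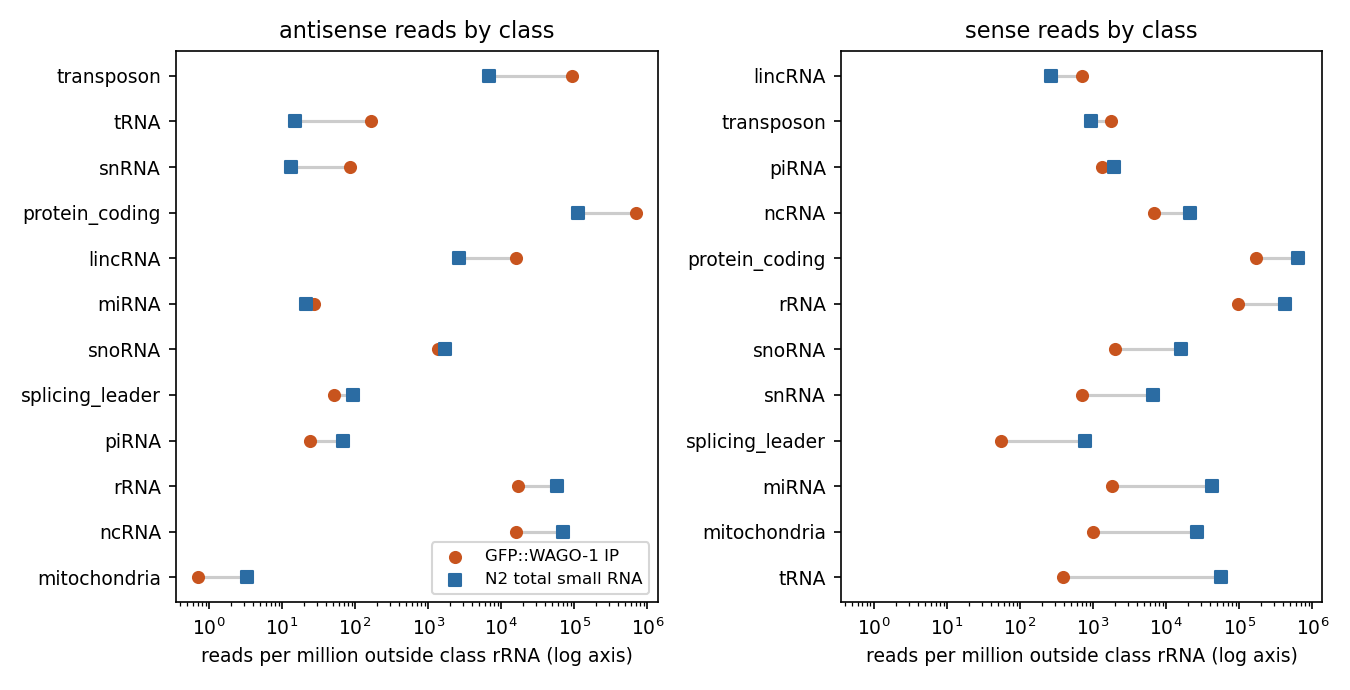
RPM (log axis) in each of the 12 classes, antisense on the left and sense on the right, with the GFP::WAGO-1 IP as circles and N2 total small RNA as squares, ordered by ratio. Transposons top the antisense panel at 92444 RPM in the IP and 6864 RPM in N2, and tRNAs close the sense panel at 393 RPM in the IP and 56887 RPM in N2.

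Sense reads of structured RNAs and of miRNAs were depleted from the IP. tRNA sense reads were at 393 RPM in the IP and 56887 RPM in N2, 145-fold lower (ratio 0.00692). Mitochondrial transcripts were at 1008 RPM in the IP and 26504 RPM in N2, a ratio of 0.0380. Spliced leader RNAs had a ratio of 0.0695, snRNAs 0.105, and snoRNAs 0.122. Of 275 tRNA genes with at least 50 sense reads, 274 were at least 2-fold lower in the IP, although near-identical tRNA copies share reads and are not separate measurements. The exception, ZK678.t2, had 74 reads in the IP and 4 in N2. All 79 snRNA genes compared and all 33 mitochondrial genes compared were at least 2-fold lower. By sense reads, 81.3% of the genes compared in the protein-coding class were at least 2-fold lower too.

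miRNAs regulate mRNAs through ALG-1 and ALG-2 and are not known as WAGO-1 cargo. Their sense reads were at 1808 RPM in the IP and 42183 RPM in N2, 23.3-fold lower, with a ratio of 0.0429 (0.0420 to 0.0437). The cde-1(tm936) pair gave 0.0475, and the HRDE-1 IP over N2 gave 0.171. Of 224 miRNA genes, 79 had at least 50 sense reads in either library, and 74 of these were at least 2-fold lower in the IP, beside 81.3% of the protein-coding class by sense reads.

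The depth of this depletion differed among miRNAs. The ratio was 0.1 or less for 64 of the 79 and 0.01 or less for 14. The muscle miRNA mir-1 had 433 reads in the IP and 45502 in N2, a ratio of 0.0107. mir-58.1, the most abundant in N2, had 238 in the IP and 49110 in N2. mir-37, of the embryonic mir-35 family, had 36 in the IP and 27638 in N2, a ratio of 0.00146 (0.00105 to 0.00202).

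Of the miRNAs with most reads in the IP, some lay closer to N2. mir-71, known for its role in lifespan, had 1730 reads in the IP and 16950 in N2, a ratio of 0.114 (0.109 to 0.120). mir-48, a let-7 relative that times larval development, had 933 in the IP and 7014 in N2. Some less abundant miRNAs were depleted less than these, among them mir-81 with 642 reads in the IP and 1936 in N2 (ratio 0.371) and mir-228 with 255 in the IP and 1691 in N2 (ratio 0.169), both named after their values had been seen. Summed over families that were chosen after the values had been seen, the let-7 family had a ratio of 0.124 (0.117 to 0.132), the mir-58 family 0.0292 (0.0278 to 0.0306), and the mir-35 family 0.00961 (0.00874 to 0.0106). The same families had 0.133, 0.0238 and 0.00943 in the cde-1(tm936) pair.

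Of the 79, 2 miRNA genes were higher in the IP. mir-258.1 had 484 sense reads in the IP and 78 in N2, a ratio of 6.95 (5.47 to 8.83). Its copy mir-258.2 was at 79.6 RPM in the IP and 17.5 RPM in N2, so the pair is a single observation if reads are shared between them. mir-2214 was nearly level, with 600 in the IP and 922 in N2. Across the 79 miRNA genes, Spearman's rho between the log2 ratios of this pair and of the cde-1(tm936) pair was 0.906. It is a description only, since IP was prepared like IP and total small RNA like total small RNA.

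**Figure D2:**
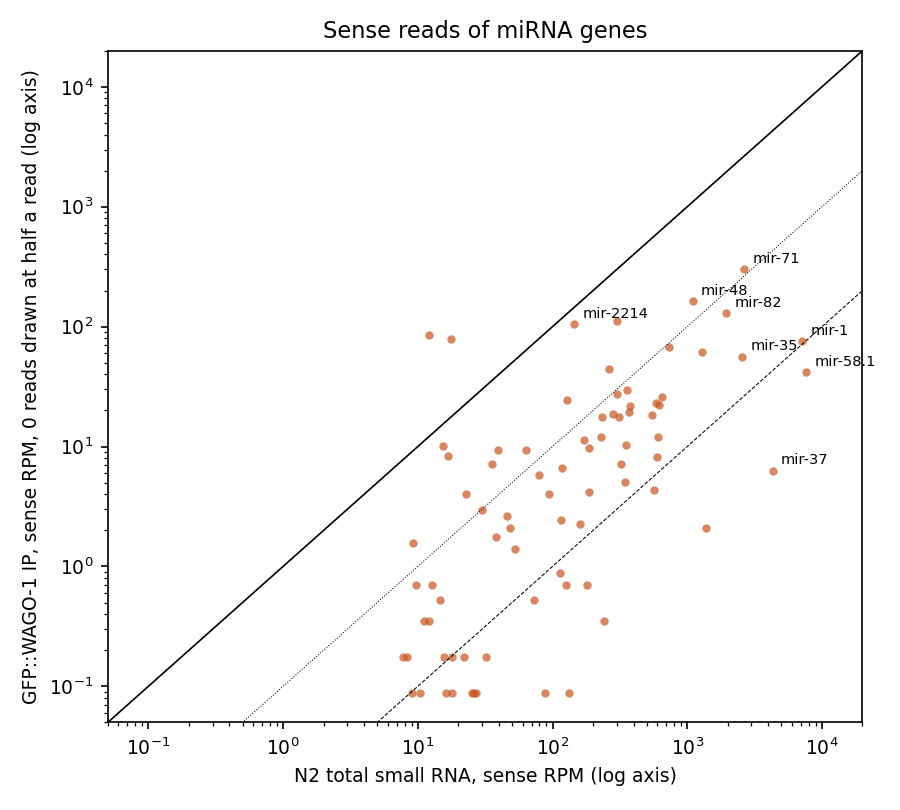
Sense RPM of the 79 compared miRNA genes in the GFP::WAGO-1 IP (vertical) and N2 total small RNA (horizontal), both on log axes, with lines at equal, 10-fold lower and 100-fold lower values and with genes at 0 reads in the IP in the lowest row. Most points lie below the 10-fold line, while mir-71 and mir-48 lie just above it and mir-37 below the 100-fold line.

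21U-RNAs are the guides of PRG-1, and each derives from its own small gene. Their sense reads were at 1308 RPM in the IP and 1905 RPM in N2, a ratio of 0.687 (0.667 to 0.707), a weaker depletion than that of miRNAs. This value rested on 1 gene. 21ur-5504 (chromosome IV, 16041087 to 16041107) had 2704 reads in the IP and 76 in N2, which was 36.2% of all 21U-RNA reads in the IP and 0.623% in N2. Without it the ratio was 0.441. The gene had 3123 reads in the IP and 67 in total small RNA of the cde-1(tm936) pair.

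The abundant 21U-RNAs of N2 went both ways. 21ur-4532 had 0 reads in the IP and 306 in N2, at least 91.1-fold lower. 21ur-5622, another abundant one, had 428 in the IP and 190 in N2, a ratio of 2.52 (2.13 to 2.99). Of 15365 21U-RNA genes, 1089 had a read in the IP and 2946 in N2. Of the 32 with at least 50 reads in either library, 23 were at least 2-fold lower in the IP (71.9%), 6 of them at 0, and 9 were at least 2-fold higher (28.1%). Among genes of the protein-coding class compared by sense reads, 81.3% were lower and 4.65% higher.

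Antisense reads were then compared gene by gene. Of 20535 genes in the protein-coding class, 5131 had at least 50 antisense reads in either library. Of these, 3332 were at least 2-fold higher in the IP (64.9% of those compared), 693 were at least 2-fold lower (13.5%), and 1106 lay between. The median log2 ratio was 1.98, with quartiles of 0.14 and 3.26. Log2 ratios have 1 read added to each count. The values of single genes are read against this median, which depends on the limit. Of the 5131, 2274 reached 50 reads only in the IP and 830 only in N2. At this depth the first could not be 2-fold lower and the second could not be 2-fold higher. Among the 2027 that reached it in both libraries, 1212 were higher and 109 lower. The median was 3.31 at a limit of 200 reads, 0.68 at a limit of 10 reads and 0.0031 with no limit.

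The balance depends on the scale. Per antisense read on protein-coding genes, all log2 ratios fall by 2.63, and 902 genes were higher and 2305 lower, so that 28.1% of the genes called were higher against 82.8% on the main scale. Per antisense read of all classes outside rRNA, the shift was -2.09 and the share was 44.7%, with 1499 higher and 1858 lower. The other scalings moved the log2 ratios by 0.40 (every counted read), 0.06 (every counted read except sense rRNA), -0.34 (TMM) and -0.16 (median of ratios). The order of the genes is the same under each.

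**Figure D3:**
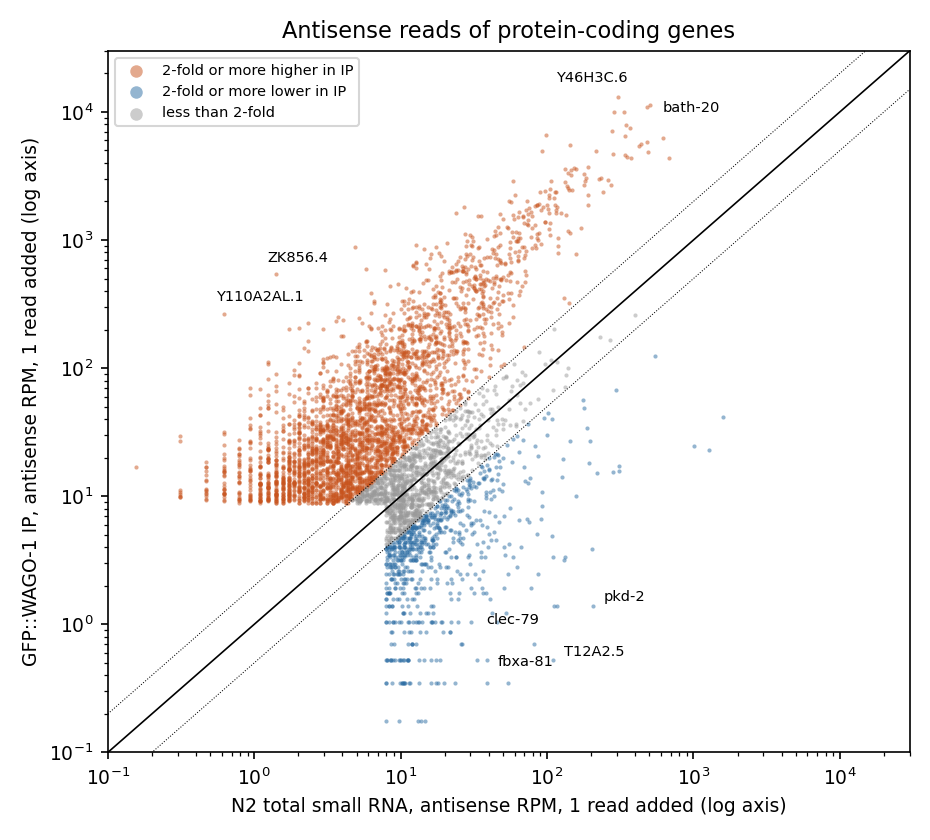
Antisense RPM of the 5131 compared protein-coding genes, with 1 read added, in the GFP::WAGO-1 IP (vertical) and N2 total small RNA (horizontal), on log axes, with the 3332 genes at least 2-fold higher in the IP and the 693 at least 2-fold lower in different colours. The solid line marks equal values, the dotted lines mark 2-fold, and the empty lower left corner is the limit of 50 reads.

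The reads on WAGO-1 were concentrated on few genes. The 100 genes with most antisense reads held 46.7% of all antisense reads on protein-coding genes in the IP and 22.5% in N2. In the IP, 120 genes held 50% of them, against 867 genes in N2. In the HRDE-1 IP, 278 genes did.

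The genes with most antisense reads in the IP were well covered in N2 too. bath-20 (chromosome II, 2040276 to 2042547), a gene of the BTB and MATH domain family, had 64263 reads in the IP and 3227 in N2, a ratio of 22.3 (21.5 to 23.1). Its relative bath-45 (chromosome II, 13123020 to 13125189) had 62717 in the IP and 3067 in N2. got-1.2, a glutamate oxaloacetate transaminase gene on chromosome X, had 57041 in the IP and 2158 in N2, and it overlaps T01C8.10 and T01C8.11 on the other strand.

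zfp-1, a zinc finger gene known from RNAi and chromatin work (chromosome III, 8791535 to 8806305), had 56995 antisense reads in the IP and 1842 in N2, a ratio of 34.7. Its exons overlap ztf-1 on the other strand, so its antisense reads cannot be told apart from sense reads of that gene where they overlap. F15D4.5 on chromosome II had 45313 in the IP and 2214 in N2. All 6 genes with most reads in the IP, Y46H3C.6 included, had ratios between 22.3 and 42.8.

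The highest ratios belonged to genes nearly empty in N2. Y110A2AL.1 (chromosome II, 2875101 to 2876768) had 1521 antisense reads in the IP and 3 in N2, a ratio of 568 with a counting interval of 183 to 1763. ZK856.4 (chromosome V, 10183284 to 10184529) had 3098 in the IP and 8 in N2, a ratio of 434 (217 to 868). W01A11.7 (chromosome V, 6504540 to 6505389) had 5037 in the IP and 30 in N2, 188-fold higher.

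Y110A2AL.1 had a far lower ratio in the cde-1(tm936) pair, 6.59, from 1297 reads in the IP and 161 in total small RNA. Whether this difference belongs to the genotype or to the library cannot be told apart. R10E4.9 had 1156 in the IP and 10 in N2, a ratio of 129 that was 101 in the cde-1(tm936) pair. fezf-1, a zinc finger transcription factor gene, had 1277 in the IP and 14 in N2. The other genes of this group, C07G3.8, B0261.8 and Y54E5A.8, had ratios between 102 and 110.

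The genes furthest below N2 had almost no antisense reads on WAGO-1. The pseudogene T12A2.5 (chromosome III, 6237258 to 6239782) had 2 reads in the IP and 706 in N2, a ratio of 0.00317 (0.000792 to 0.0127). The polycystin gene pkd-2, used in male sensory neurons (chromosome IV, 15227814 to 15234993), had 7 in the IP and 1318 in N2. F44D12.8 had 3 in the IP and 517 in N2, and K06A5.2 had 1 in the IP and 248 in N2.

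Members of the C-type lectin family stood among them. clec-79 had 7 reads in the IP and 751 in N2, clec-73 had 7 in the IP and 718 in N2, and clec-40 had 1 in the IP and 347 in N2. clec-40 overlaps phy-3 on the other strand, and pkd-2 overlaps the noncoding gene Y73F8A.1172, so their reads cannot be told apart from sense reads of those neighbours. The F-box gene fbxa-81 on chromosome X had 2 in the IP and 247 in N2. All 8 genes with the lowest ratios were also lower in the cde-1(tm936) pair, where clec-40 had 0 reads in the IP and 209 in total small RNA. Over all genes compared, 15.7% of those with an exon opposite another gene were at least 2-fold lower, against 13.0% of those without.

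By sense reads, 8367 genes had at least 50 in either library. In the IP 389 were at least 2-fold higher (4.65%) and 6806 at least 2-fold lower (81.3%), with a median log2 ratio of -1.99. Y76A2B.4 (chromosome III, 13545245 to 13546777) had 8928 sense reads in the IP and 147 in N2, a ratio of 68.0 (57.8 to 80.1). F59H6.14 had 367 in the IP and 4 in N2, and madf-6 had 1318 in the IP and 30 in N2. At the other end, Y54G2A.10 had 6 in the IP and 3435 in N2, F09E10.5 had 2 in the IP and 717 in N2, and BE10.3 had 5 in the IP and 1231 in N2. madf-6 overlaps C54G6.2 on the other strand, and Y54G2A.10 overlaps Y54G2A.65. Where they overlap, their sense reads cannot be told apart from antisense reads of those neighbours.

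Gene lists were next read by their antisense reads, by counts at 2-fold and by medians, beside the 64.9% higher, 13.5% lower and median of 1.98 over all compared genes. The lists were chosen with earlier results of these data known. Counts and medians cover only the members with 50 reads in either library, many of which reached the limit in 1 library alone, so each list is also given by its reads summed over every member. List medians for the cde-1(tm936) pair and for the HRDE-1 IP cover the same members, which were chosen by the limit in the first pair. Members that passed only through the GFP::WAGO-1 IP can therefore have lower medians elsewhere by that choice alone. Medians over all genes use the limit in the pair named. The same sum over all genes of the protein-coding class had a ratio of 6.21. In whole worms, fewer cells of a type and fewer small RNAs per cell cannot be told apart.

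Several large gene families were higher as a group. Of 351 F-box genes, which encode adaptors of ubiquitin ligases, 108 were compared, 102 were higher and 3 lower, with a median of 3.20. Of the 108, 68 reached the limit only in the IP. Summed, the family had 25268 RPM in the IP and 1791 RPM in N2, a ratio of 14.1. fbxc-43 led it with 28167 reads in the IP and 589 in N2. Of 83 bath and math genes, 29 were compared, 24 were higher and 2 lower, with a median of 2.61. Their summed share was 18.0-fold higher in the IP (17.7 to 18.4).

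Of 278 nuclear hormone receptor genes, which encode ligand-regulated transcription factors, 51 were compared, 39 were higher and 5 lower, with a median of 2.38 and a summed ratio of 7.64. 29 of the 51 reached the limit only in the IP and 5 only in N2. nhr-58 had 5386 reads in the IP and 132 in N2, and nhr-229 had 9133 in the IP and 303 in N2. C-type lectin genes were split. Of the 20 compared among 250, 14 were higher, 6 were lower and none lay between, with a median of 2.74. 9 of the 20 reached the limit only in the IP and 6 only in N2. The median of C-type lectins stood above that of all genes, but their summed ratio of 1.60 (1.53 to 1.66) was below that of all protein-coding genes, and their median was 1.35 in the cde-1(tm936) pair. clec-238 was at 269 RPM in the IP and 17.5 RPM in N2.

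Cuticle collagen genes, which are expressed in the epidermis, were compared for 18 of 174 members. All 18 were higher, with a median of 4.08, but 14 of them reached the limit only in the IP. Over all 174 the reads numbered 14561 in the IP and 1908 in N2, a ratio of 8.55 (8.15 to 8.97). col-71 had 5251 reads in the IP and 532 in N2, and col-111, which overlaps psr-1 on the other strand, had 2352 in the IP and 106 in N2. Histone genes were compared for 26 of 80 members, of which 24 were higher and none lower, with a median of 3.35, and 21 of the 26 reached the limit only in the IP. Summed over the 80, the ratio was 15.9. The linker histone genes carried most of the reads. his-24 had 20568 reads in the IP and 1016 in N2, and hil-8 had 10674 in the IP and 720 in N2. his-24 lies opposite the noncoding gene M163.16, which had 4040 sense reads in the IP and 193 in N2. Where they overlap, antisense reads of his-24 cannot be told apart from sense reads of M163.16. Core histone genes share near-identical copies, and their counts are uncertain one by one. The median of the same 26 histone genes was 1.20 in the cde-1(tm936) pair, and the ratio summed over the 80 was 8.03 there.

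Of 82 ribosomal protein genes, 26 were compared, 20 were higher and 1 lower, with a median of 2.02, near that of all genes. 18 of the 26 reached the limit only in the IP. Summed over the 82, the ratio was 2.80 (2.67 to 2.94), below the 6.21 of all protein-coding genes. rps-26 had 538 reads in the IP and 19 in N2, while rpl-34 had 281 in the IP and 295 in N2.

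Genes of the germline and oocyte lay below the level of all genes. Of 47 genes, 35 were compared, 6 were higher, 7 were lower and 22 lay between, with a median of -0.31 and a summed ratio of 1.75. The receptor for yolk rme-2 had 64 reads in the IP and 298 in N2, and the P granule gene pgl-1 had 43 in the IP and 158 in N2. Both were named as examples of the lower members, with earlier results of these data known. Among members with more reads, the germline helicase genes glh-1 and glh-4 were higher. glh-1 had 1295 reads in the IP and 240 in N2, and glh-4 had 2508 in the IP and 434 in N2. puf-5 was also higher, with 537 in the IP and 131 in N2. klp-7 lay between, with 612 in the IP and 620 in N2. The same list had a median of 1.72 for the HRDE-1 IP over N2, and of -0.66 in the cde-1(tm936) pair. Over all genes compared there, the medians were 2.25 and 1.35. The summed ratio of the list for the HRDE-1 IP over N2 was 5.07, against 5.53 for all protein-coding genes.

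Of 52 small RNA pathway genes, 41 were compared, 19 were higher, 8 were lower and 14 lay between, with a median of 0.36 and a summed ratio of 2.75 in the WAGO-1 IP. For the HRDE-1 IP over N2 the median was 2.12, against 2.25 over all genes compared there. The summed ratio there was 6.42, against 5.53 for all protein-coding genes. The RNA-dependent RNA polymerase gene rrf-2 had 1713 reads in the IP and 117 in N2. nrde-2, a gene of nuclear RNAi, had 1919 in the IP and 317 in N2. hrde-1, which encodes the nuclear Argonaute of the germline, had 1100 in the IP and 312 in N2, a log2 ratio of 1.98 that lay at the median of all genes and turned below 0 per antisense read on protein-coding genes or of all classes outside rRNA. wago-1 itself was level, with 114 in the IP and 106 in N2, a ratio of 1.20 (0.925 to 1.57). prg-1 had 535 in the IP and 430 in N2.

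Somatic lists differed. Of 12 muscle genes compared among 21, 10 were lower and 2 higher, with a median of -2.49 and a summed ratio of 0.365. 7 of the 12 reached the limit only in N2. The paramyosin gene unc-15 had 37 reads in the IP and 578 in N2. The giant protein gene unc-22, a classic RNAi target, had 74 in the IP and 452 in N2, and the tropomyosin gene lev-11 was higher, with 311 in the IP and 62 in N2. All 3 intestine genes compared among 19 were lower, but all 3 reached the limit only in N2, so none could be 2-fold higher. Summed over the 19, the ratio was 0.191, and ifb-2 had 5 reads in the IP and 193 in N2.

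Of 9 neuron genes compared among 23, 6 were higher and 2 lower, with a median of 2.14 and a summed ratio of 3.24. 6 of the 9 reached the limit only in the IP and 2 only in N2. In the cde-1(tm936) pair the median of the same 9 was 1.06, but the summed ratio was 5.79. That sum came from 10673 reads in the IP and 1508 in total small RNA, against 5.20 for all protein-coding genes there. The synaptic gene rimb-1 had 1221 reads in the IP and 67 in N2, while unc-13, needed for synaptic vesicle priming, had 25 in the IP and 287 in N2. Of 9 sperm genes compared among 85, 6 were higher and 3 lower, with a median of 2.28 that was 0.49 in the cde-1(tm936) pair. 4 of the 9 reached the limit only in the IP and 3 only in N2. Summed over the 85, the ratio was 2.29, from 2087 reads in the IP and 1019 in N2. ERGO-1 class targets, sources of 26G-RNAs and of siRNAs on other Argonautes, had 1 higher, 2 lower and 3 between among 6, with a median of -0.66 and a summed ratio of 0.586. K02E2.6 had 385 in the IP and 1886 in N2.

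**Figure D4:**
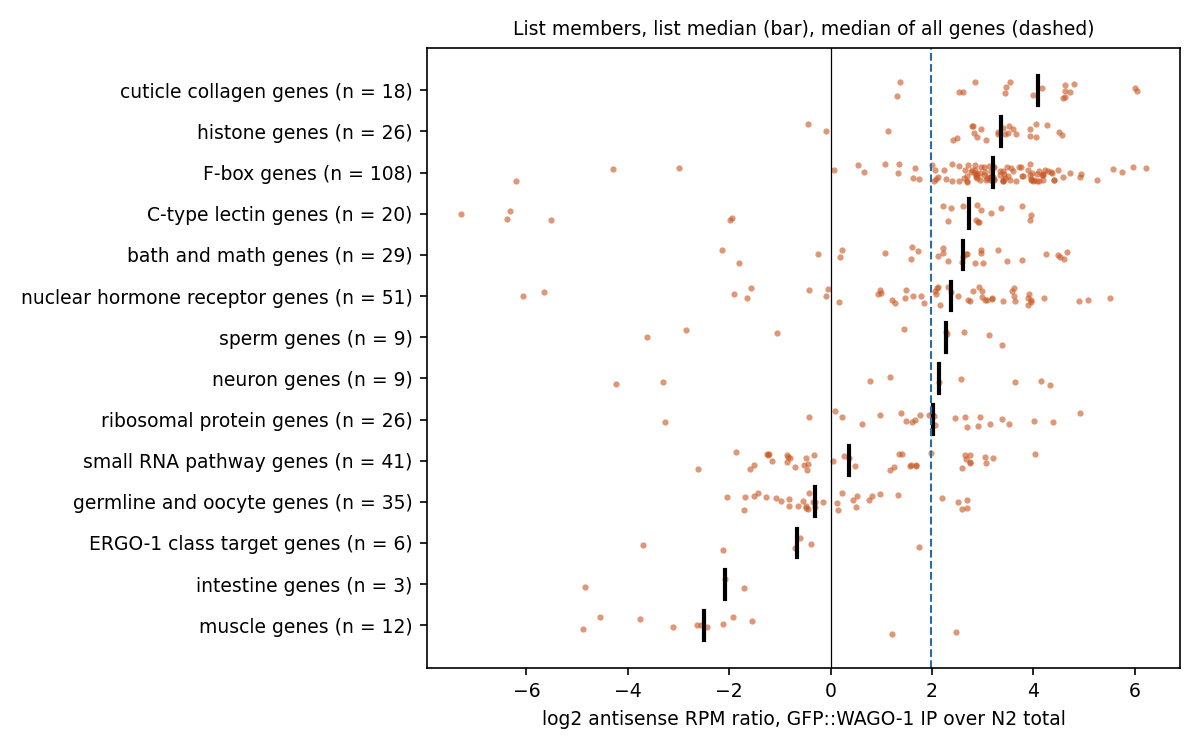
Log2 antisense RPM ratios of the GFP::WAGO-1 IP over N2 total small RNA for the compared members of 14 gene lists, with each member as a point, the list median as a bar and the median of all compared genes, 1.98, as a dashed line. Cuticle collagens sit at the top with a median of 4.08 and muscle genes at the bottom with -2.49.

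The X chromosome had a higher median than the autosomes. Its 521 compared genes had a median log2 ratio of 2.80, against medians between 1.58 (chromosome IV) and 2.13 (chromosome V) on the autosomes. X held both the largest share at least 2-fold higher, 76.2% against 59.4% to 66.6% on the autosomes, and the largest share at least 2-fold lower, 15.9% against 12.5% to 14.9%. Genes on X held 13.1% of the antisense reads on protein-coding genes in the IP and 10.0% in N2, a ratio of 8.16 in RPM, against ratios between 5.32 (chromosome III) and 6.87 (chromosome II) on the autosomes. In the cde-1(tm936) pair the median of X was 2.61, against autosomal medians between 1.30 and 1.74, but its summed ratio of 5.95 was below those of chromosomes I and II, both at 5.99.

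Both pairs of libraries ordered the genes alike. Over 4651 genes that reached 50 reads in both pairs, Spearman's rho between the log2 ratios was 0.922, a description across genes, which are not independent replicates and share their protocol. In the cde-1(tm936) pair, 5667 genes were compared, of which 54.9% were at least 2-fold higher in the IP and 21.8% at least 2-fold lower, with a median of 1.35. Among the 4651, 2657 were higher in both pairs, which was 90.3% of those higher in the first and 96.7% of those higher in the second. 598 were lower in both, 91.4% of those lower in the first and 70.3% of those lower in the second. Only 13 genes crossed from one side to the other.

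Those 13 were named after their values had been seen, and the rarest direction held 3 of them. dig-1, a giant extracellular matrix gene, had 62 reads in the IP and 316 in N2, but 2161 in the cde-1(tm936);GFP::WAGO-1 IP and 512 in cde-1(tm936) total small RNA. F44E7.5 and the neuropeptide gene nlp-11 were the others. Among the 10 in the opposite direction was ent-7, with 240 reads in the IP and 38 in N2, against 40 in the cde-1(tm936);GFP::WAGO-1 IP and 88 in cde-1(tm936) total small RNA. With 1 library per genotype, whether these differences belong to the genotype or to the library cannot be told apart.

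**Figure D5:**
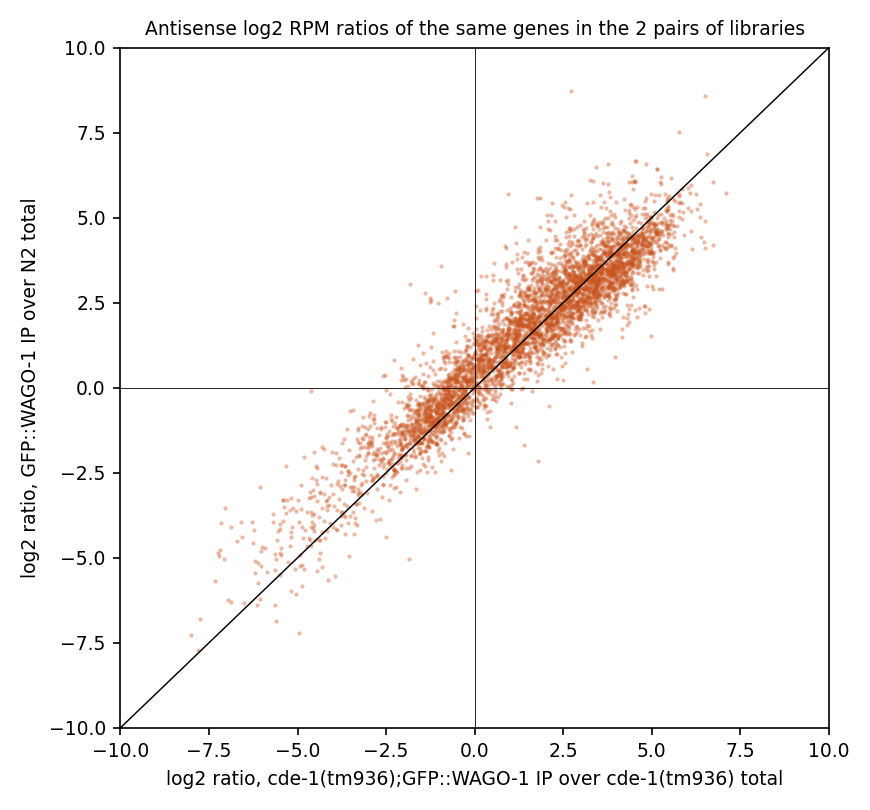
Log2 antisense RPM ratios of the 4651 genes that reached 50 reads in both pairs, with GFP::WAGO-1 IP over N2 total small RNA on the vertical axis and cde-1(tm936);GFP::WAGO-1 IP over cde-1(tm936) total small RNA on the horizontal axis. Points follow the line of equal ratios (Spearman's rho 0.922), and 13 genes lie past 2-fold in opposite directions.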

How the data were processed

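Per the paper's methods, the authors kept reads between 18 and 30 nt and aligned them to transcripts of WormBase WS243 by Bowtie2 (version not given in the sources used here) at default settings, and counted them with custom scripts. The deposited values are raw counts of sense and antisense reads per transcript, with no normalization. Counts were summed over the transcripts of a gene and class. Entries with no class, at most 0.00108% of reads in the libraries used, were left out. Of 45510 genes, 44852 matched Ensembl release 115 (WBcel235).

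Of 10 small RNA libraries, 5 were used, each the only one of its group, so no test was run. Genes were compared at 50 reads or more in either library and called at 2-fold. Members and lists were chosen with earlier results of these data known. Genes named from the protein-coding class had at least 200 reads in either library: the 8 highest and 8 lowest antisense ratios, the 6 with most antisense reads in the IP, and the 3 highest and 3 lowest sense ratios. The genes with most reads of each class and up to 4 members of each list were added. The germline genes rme-2 and pgl-1 were named besides these. Computation used Python 3.11.15 (numpy, pandas, scipy) and edgeR 4.0.16 for TMM factors. Alternatives covered scaling, filter, added reads and libraries. A table of 3′-tail reads had 6 columns that were not matched to samples and were not used here.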

Additional observations from a re-analysis of the deposited data

Results flagged for a closer look

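The comparison of a WAGO-1 IP with total small RNA gave opposite directions in the GFP::WAGO-1 pair and in the cde-1(tm936) pair for antisense reads of 2 classes and 2 named genes, each with a counting interval clear of 1 in both. The difference between the pairs was not tested, since each has 1 library per group. Antisense reads on snRNA genes had a ratio of 6.35 in the GFP::WAGO-1 pair and 0.751 in the cde-1(tm936) pair. Antisense reads on miRNA genes had 1.28 in the GFP::WAGO-1 pair and 0.679 in the cde-1(tm936) pair, from 155 reads in the IP and 136 in N2. The Argonaute gene csr-1 had 0.616 in the GFP::WAGO-1 pair and 1.27 in the cde-1(tm936) pair. The ERGO-1 class target E01G4.5 had 0.767 in the GFP::WAGO-1 pair and 1.53 in the cde-1(tm936) pair.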

How the results depend on the processing

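With 1 library per group, no replicate could be left out. No paired analysis was possible because each group has 1 library and nothing was tested. The ratios are shares of a library, so the denominator moved all of them by more than counting error. Per all counted reads, the ratios of the WAGO-1 IP over N2 were 8.21 (antisense, protein-coding), 17.8 (antisense, transposons), 16.8 (antisense, pseudogenes), 0.0567 (sense, miRNAs) and 0.908 (sense, piRNAs), and per all counted reads less sense rRNA they were 6.45, 14.0, 13.2, 0.0445 and 0.714 in the same order. Per antisense read on protein-coding genes the ratio was 2.17 for transposons, 2.04 for pseudogenes, 0.00690 for miRNAs and 0.111 for piRNAs. Per antisense read outside rRNA it was 1.46 for protein-coding genes, 3.17 for transposons, 2.99 for pseudogenes, 0.0101 for miRNAs and 0.162 for piRNAs. Per sense miRNA read it was 145 for protein-coding genes, 314 for transposons, 296 for pseudogenes and 16.0 for piRNAs. The cde-1(tm936) pair gave 5.20, 20.2, 14.6, 0.0475 and 0.511 in the first order. Without the gene with most reads of each class the ratios were 6.11, 12.9, 10.4, 0.0512 and 0.441.

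Genes at least 2-fold higher and lower numbered 902 and 2305 per antisense read on protein-coding genes, and 1499 and 1858 per antisense read outside rRNA, where the median log2 ratio turned to -0.65 and -0.11. They numbered 5265 and 2566 at a minimum of 10 reads, 1600 and 137 at 200 reads, and 6276 and 5553 with no filter. With 1 transcript per gene 457 were lower, and in the cde-1(tm936) pair 1236. The ncRNA ratio turned to 3.35 without genes opposite a small RNA gene, an alternative chosen after seeing the data.

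Of 147 named genes (those under 50 reads in both libraries were left out), TMM and the median of ratios reversed none. Per antisense read on protein-coding genes, called log2 ratios turned for 21ur-5622 sense (-1.30), F15A2.7 sense (-0.010), glh-1 (-0.043), puf-5 (-0.44), fer-1 (-1.19), spe-15 (-0.36), lev-11 (-0.16), unc-31 (-0.49) and hrde-1 (-0.66). Per antisense read outside rRNA they turned for 21ur-5622 sense (-0.75), fer-1 (-0.64) and hrde-1 (-0.11). Per sense miRNA read, all log2 ratios were 4.54 higher, and 33 turned: linc-22 (3.13), mir-71 sense (1.42), mir-48 sense (1.80), MTCE.33 sense (0.38), MTCE.13 sense (2.30), ZK265.11 sense (1.53), H09I01.4 (0.57), rrn-3.1 sense (2.90), rrn-1.2 sense (1.23), F31C3.14 (3.33), F31C3.16 (1.85), M163.13 sense (2.38), C08D8.3 sense (3.11), ZK265.10 sense (1.31), T26A8.6 sense (1.04), K07C10.2 (1.60), B0334.12 (0.54), sls-1.3 sense (1.52), sls-1.8 sense (0.88), sls-1.7 sense (0.32), sls-1.11 sense (0.56), sls-1.12 (0.68), F44E2.2 sense (3.02), R52.2 sense (1.88), unc-15 (0.78), unc-89 (1.99), unc-22 (2.11), unc-13 (1.24), vit-6 (2.84), vit-2 (2.47), K02E2.6 (2.42), prg-1 sense (3.21), csr-1 sense (3.35).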

Other observations

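The 10 protein-coding genes with most antisense reads in N2 were looked at after their values had been seen. Of these, 6 were at least 2-fold higher in the WAGO-1 IP and 4 at least 2-fold lower. The 3 at the top of N2 were all lower. vps-32.1, a gene of the ESCRT machinery for membrane sorting, had 237 antisense reads in the IP and 10236 in N2, and it overlaps C56C10.9 on the other strand. smg-1, which encodes the kinase of nonsense-mediated decay, had 129 in the IP and 8200 in N2, and hpo-40 had 140 in the IP and 6423 in N2. In the cde-1(tm936) pair their log2 ratios were -4.31, -4.86 and -5.63, and for the HRDE-1 IP over N2 they were -4.56, -5.48 and -4.01. Next to them in abundance, sqst-1, the worm p62 autophagy receptor, had 24919 in the IP and 4383 in N2. eri-6, a helicase gene of the small RNA pathways, had 35714 in the IP and 3944 in N2. Which Argonaute carries the antisense reads of vps-32.1, smg-1 and hpo-40 was not tested.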
